A study of Mus musculus with 5 samples.

Results

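The proteasome is the protease that degrades ubiquitin-tagged proteins in the cytosol and nucleus. Its genes were taken from the transcript table as every gene whose symbol begins with Psma, Psmb, Psmc or Psmd followed by a digit, with the transcripts of a gene summed. The rule found 40 of the 24531 genes in the table. Of these, 37 encode parts of the complex, or assembly chaperones of it, that most tissues express, and the other 3 are Psma8, Psmb11 and Psmc3ip. The RNA was that of adipocytes isolated from the epididymal fat of C57BL/6N mice after 12 weeks on a high-fat diet. The f/f group holds 3 libraries from mice with floxed Prmt1 alleles, whose genotype the labels give as WT, and the FKO group holds 2 libraries from mice in which Prmt1 was deleted in adipocytes. Prmt1 encodes a protein arginine methyltransferase. The diet was common to both groups, and the promoter driving Cre, the sex and the age of the mice were not given in the sources used here.

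The complex has a barrel-shaped core and a regulatory particle that caps it. Alpha subunits form the outer rings of the core and control entry, and beta subunits form the inner rings, where Psmb5, Psmb6 and Psmb7 carry the proteolytic sites. In the regulatory particle, a base with a ring of ATPases unfolds the substrate, and a lid removes its ubiquitin. In immune cells and under interferon, Psmb8, Psmb9 and Psmb10 replace Psmb5, Psmb6 and Psmb7 in newly made cores, which are then called immunoproteasomes. In adipocytes, proteasome activity is known to be raised in thermogenic brown fat through the transcription factor encoded by Nfe2l1.

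The libraries held 43580154 to 57016997 estimated counts, and the proteasome genes took 0.345% to 0.457% of them. Prmt1 itself was at 34.2, 29.4 and 32.3 counts scaled to library size (CPM) in f/f and at 21.0 and 19.4 CPM in FKO, a 1.58-fold lower level (edgeR adjusted p = 0.0171, and 0.115 and 0.161 without FKO replicate 1 or 2). The 12 adipocyte markers examined summed to 46920 to 47070 CPM in f/f and to 64790 and 69660 CPM in FKO. Markers of other cells were also present: the sum of 14 macrophage markers was 1761, 1569 and 2675 CPM in f/f, by replicate number, against 574 and 752 CPM in FKO. In this bulk RNA, a different number of cells of a type and a different amount of RNA per cell cannot be told apart. No label ties a library to its own animal, so a p-value here reflects how these 5 libraries vary, which may be technical.

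Transcripts for the proteasome were higher in the FKO adipocytes across most of the complex. Summed over the 37 broadly expressed genes, they amounted to 3711, 3327 and 3572 CPM in f/f and 4995 and 4960 CPM in FKO, 1.41-fold more. Each FKO library lay above every f/f library. On this scale the sum over all genes tested was itself 1.17-fold higher in FKO. As a share of the estimated counts, with no factors between libraries, the 40 genes of the name rule took 0.345% to 0.401% per f/f library. Their share was 0.450% to 0.457% per FKO library. The groups stayed apart in this share, but the size of the summed difference depended on the scaling between libraries. By edgeR's quasi-likelihood test at an adjusted p of 0.05, 14 of the 37 rose, which is 37.8% of them, and 11.9% of the 14492 genes tested were called higher (25.4% in either direction). None of the 37 was called lower by edgeR, limma-voom or DESeq2, and at an unadjusted p under 0.05 the counts were 21 higher and 0 lower. Of all genes tested, 13.4% were called lower. In CPM, the FKO libraries lay above every f/f library for 28 of the 37, or 75.7%, and 28.6% of all genes tested had that pattern. This separation depended on the scaling between libraries, and genes for which it was lost are named below. The median log2 fold change of the 37 was 0.35, and that of all genes tested was -0.05. Cell-type markers moved in the same libraries. By edgeR, 4 of the 12 adipocyte markers rose (summed level 1.43-fold higher in FKO). Of markers of other cells, 12 of 14 for macrophages (3.02-fold lower as a sum), 5 of 8 for fibroblasts and progenitors (2.35-fold lower) and 7 of 7 for mesothelium (3.98-fold lower) fell. No marker of these 4 lists was at 0 in any library, and their part in the proteasome result was not tested.

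Median log2 fold changes of the subunit classes ran from 0.07 for the base chaperones to 0.57 for the non-ATPase base subunits, and single genes ran from -0.13 to 1.58. Psma1 and Psmb5 of the core and the assembly chaperone Psmd5 were more than 2-fold higher in FKO, and the other 11 genes that rose were 1.35-fold to 1.81-fold higher. The spread within f/f was shared across many of the genes. In f/f replicate 2, 24 of the 37 had their lowest value of all 5 libraries, among them 13 of the 14 constitutive core genes. The plot of every gene by library shows this as a common left shift of that library.

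**Figure D1:**
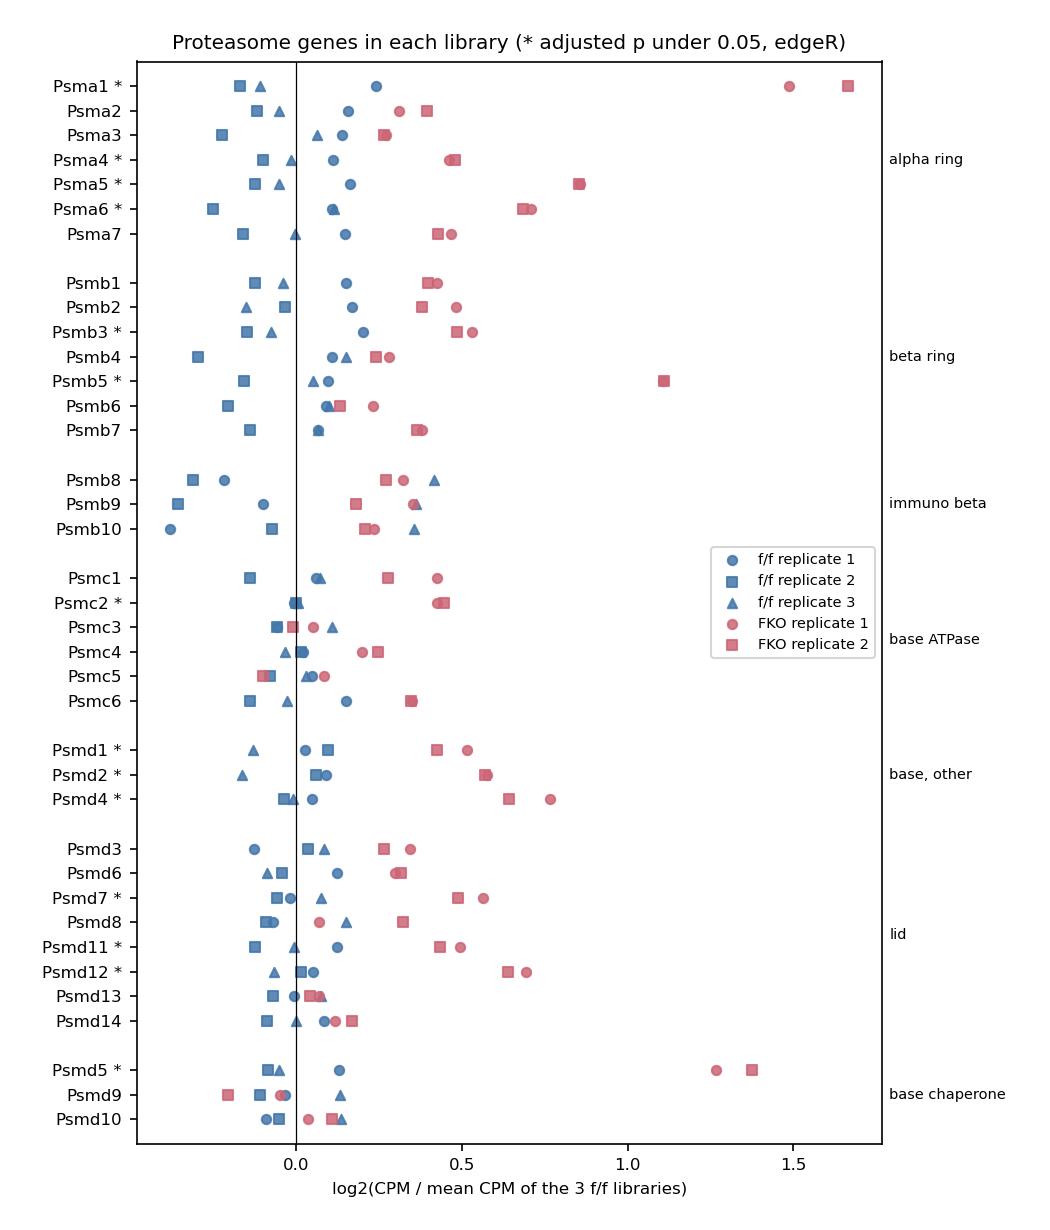
Level of each of the 37 broadly expressed proteasome genes in each library, as log2 of its CPM over the mean CPM of the 3 f/f libraries; 0 on the horizontal axis is that mean. Blue symbols are f/f libraries, red symbols are FKO libraries, and a star marks an adjusted p under 0.05 by edgeR. The red symbols lie right of all blue symbols for 28 genes, and Psma1, Psmd5 and Psmb5 stand farthest out.

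Psma1 (chr7:114264550-114276116, mm10), an alpha-ring subunit, had the highest fold change of the 37. Its level was 155, 116 and 121 CPM in f/f against 367 and 415 CPM in FKO, or 131 ± 20.8 (SD, n = 3) and 391 ± 34.1 (SD, n = 2). Both FKO libraries were well clear of the f/f range, and the log2 fold change was 1.58 (SE 0.17), or 2.99-fold, with an edgeR adjusted p of 0.0022. Per length, measured as fragments scaled to transcript length and library size (FPKM), Psma1 made up 15.5% to 17.7% of the summed alpha-ring transcripts in f/f. In FKO it made up 27.8% and 30.3%.

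Psmd5 (chr2:34852089-34870962), a chaperone that holds the ATPases during assembly of the base and leaves before the particle is complete, was at 35.7, 30.8 and 31.5 CPM in f/f and at 78.7 and 84.8 CPM in FKO. The groups did not overlap, and the log2 fold change was 1.32 (SE 0.14), or 2.50-fold, with an edgeR adjusted p of 0.00194. Psmb5 (chr14:54614120-54617995), the subunit with the chymotrypsin-like site, was at 84.1, 70.5 and 81.5 CPM in f/f and at 170 and 170 CPM in FKO. The FKO libraries differed by less than 1 CPM, and the log2 fold change was 1.11 (SE 0.14), or 2.16-fold, with an adjusted p of 0.00346. These 3 genes kept their call under every alternative tried, with adjusted p-values up to 0.0218 for Psma1, 0.0238 for Psmd5 and 0.037 for Psmb5.

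The DNA just before the transcription start is shown for these 3 genes and for Psmb6 and Psmb8, which are the beta-ring gene with the smallest change and an immunoproteasome gene. Each line gives the 250 bases before the annotated start in RefSeq, build GRCm38.p6, on the strand of the gene. The windows are chr7:114276117-114276366 (minus strand) for Psma1, chr2:34870963-34871212 (minus) for Psmd5, chr14:54617996-54618245 (minus) for Psmb5, chr11:70525107-70525356 (plus) for Psmb6 and chr17:34197945-34198194 (plus) for Psmb8. Capitals mark matches to 4 motifs searched on both strands. These are TGACNNNGC, the core of the antioxidant response element that NFE2-related factors bind with small Maf proteins, the repeat of interferon-stimulated response elements (GAAA, any 2 bases, GAAA), TTCNNNGAA of STAT sites, and CCAAT, the box bound by NF-Y.
Psma1: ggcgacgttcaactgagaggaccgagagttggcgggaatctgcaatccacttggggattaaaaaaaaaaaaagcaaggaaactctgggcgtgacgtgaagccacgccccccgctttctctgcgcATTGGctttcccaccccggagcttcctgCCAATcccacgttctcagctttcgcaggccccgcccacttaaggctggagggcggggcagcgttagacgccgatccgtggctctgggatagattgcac
Psmd5: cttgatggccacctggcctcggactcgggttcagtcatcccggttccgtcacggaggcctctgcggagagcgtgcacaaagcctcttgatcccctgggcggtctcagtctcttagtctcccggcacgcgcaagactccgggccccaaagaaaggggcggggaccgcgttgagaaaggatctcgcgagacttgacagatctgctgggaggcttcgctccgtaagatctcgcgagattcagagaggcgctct
Psmb5: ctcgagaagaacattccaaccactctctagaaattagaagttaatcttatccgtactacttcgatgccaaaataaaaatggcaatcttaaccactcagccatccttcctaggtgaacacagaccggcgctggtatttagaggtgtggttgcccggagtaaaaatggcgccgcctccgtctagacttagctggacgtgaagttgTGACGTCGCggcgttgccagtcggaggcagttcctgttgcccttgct
Psmb6: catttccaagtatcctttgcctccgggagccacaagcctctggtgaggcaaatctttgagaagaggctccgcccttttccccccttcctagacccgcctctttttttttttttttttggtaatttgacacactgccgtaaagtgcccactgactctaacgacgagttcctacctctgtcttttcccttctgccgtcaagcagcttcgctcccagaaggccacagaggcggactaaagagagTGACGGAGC
Psmb8: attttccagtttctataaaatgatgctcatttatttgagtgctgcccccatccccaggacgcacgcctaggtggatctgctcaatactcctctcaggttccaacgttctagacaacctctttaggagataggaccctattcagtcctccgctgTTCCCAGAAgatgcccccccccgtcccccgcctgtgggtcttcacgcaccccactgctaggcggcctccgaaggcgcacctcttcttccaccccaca
Psmb5 and Psmb6 each held 1 antioxidant-type match and Psmb8 held 1 STAT-type match, whose pattern is met on both strands. Psma1 held CCAAT at 2 places, and no motif was matched in the Psmd5 window. Over windows from 250 bases before to 50 after the start, which the table gave for 31 of the 37 genes, TGACNNNGC was in 5, or 16.1%, and in 14% of all 27025 genes with a window. It was in 2 of the 13 genes that rose and had a window and in 3 of the 18 that did not rise. The interferon-type repeat was in 3 of the 31 (3.99% of all genes), TTCNNNGAA in 2 (9.55%) and CCAAT in 12 (41.1%), and no match overlapped that of a different motif. A match describes the letters in the window and not the binding of a factor.

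In the core particle, all 14 constitutive genes were higher in CPM in both FKO libraries than in any f/f library, a pattern of 28.6% of all genes tested. In FPKM the groups overlapped for Psma2, Psma3, Psmb4, Psmb6 and Psmb7. The summed level of all 14 was 1590, 1288 and 1463 CPM in f/f and 2226 and 2250 CPM in FKO. By edgeR, 6 of the 14 rose, the median log2 fold change was 0.44, and 0 fell (11 higher and 0 lower at an unadjusted p under 0.05; 10 and 0 by DESeq2; 5 and 0 by limma-voom). The share that rose was 42.9%, beside 11.9% of all genes tested. Scaled by library size alone, 3 of the 14 rose, beside 7.11% of all genes.

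Of the 7 alpha-ring genes, which form the gate of the barrel, Psma1, Psma5, Psma6 and Psma4 rose. Psma5 was at 84.4, 69.2 and 72.8 CPM in f/f and at 137 and 136 CPM in FKO, a 1.81-fold difference (log2 0.86, SE 0.14, edgeR adjusted p = 0.00818). Psma6 was at 143, 111 and 143 CPM in f/f and at 217 and 213 CPM in FKO, 1.62-fold higher (log2 0.70, SE 0.16, adjusted p = 0.0214). For both genes the FKO libraries lay together and apart from f/f. Psma4 was at 113, 97.6 and 104 CPM in f/f and at 144 and 146 CPM in FKO, 1.39-fold higher (log2 0.47, SE 0.14, adjusted p = 0.0436). The other 3 alpha genes, Psma2, Psma3 and Psma7, had log2 fold changes of 0.35, 0.27 and 0.45, with adjusted p-values of 0.115, 0.24 and 0.0617.

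Of the 7 constitutive beta-ring genes, Psmb5 and Psmb3 rose. Psmb3, a structural beta subunit, was at 79.2, 62.2 and 65.4 CPM in f/f and at 99.7 and 96.6 CPM in FKO, 1.42-fold higher (log2 0.51, SE 0.15, edgeR adjusted p = 0.0498), so its call lies at the threshold. The other catalytic subunits had smaller values than Psmb5. Psmb7, with the trypsin-like site, was at 168, 146 and 168 CPM in f/f and at 209 and 207 CPM in FKO (log2 0.37, SE 0.14, adjusted p = 0.091). Psmb6, with the caspase-like site, was at 103, 84.1 and 104 CPM in f/f and at 114 and 106 CPM in FKO (log2 0.18, SE 0.15, adjusted p = 0.407). Neither passed the test, although in CPM, but not in FPKM, the groups were separate for both genes. Psmb1, Psmb2 and Psmb4, beta subunits without a proteolytic site, had log2 fold changes of 0.41, 0.43 and 0.26 (adjusted p = 0.0747, 0.0732 and 0.299). By DESeq2, Psma7, Psmb1, Psmb2 and Psmb7 passed the threshold as well, and the first 3 of these also passed without f/f replicate 1.

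For all 3 immunoproteasome subunits the FKO and f/f libraries overlapped, which was so for no other whole class among the 37 genes. Psmb8 (chr17:34198195-34201454) was at 26.6, 24.9 and 41.3 CPM in f/f and at 38.6 and 37.3 CPM in FKO (log2 0.30, SE 0.23, edgeR adjusted p = 0.378). Psmb9 (chr17:34182099-34187330) was at 12.9, 10.8 and 17.8 CPM in f/f and at 17.7 and 15.7 CPM in FKO (log2 0.27, SE 0.23, adjusted p = 0.414). Both lie in the major histocompatibility complex beside the peptide transporter genes. Psmb10 (chr8:105935728-105938392) was at 24.0, 29.7 and 40.0 CPM in f/f and at 36.8 and 36.1 CPM in FKO (log2 0.22, SE 0.22, adjusted p = 0.488). None of the 3 passed at an unadjusted p under 0.05, by DESeq2 or by limma-voom.

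For each of the 3, f/f replicate 3 was the highest of all 5 libraries, and it was also the library with the highest summed macrophage markers, 2675 CPM. Macrophages are known to express immunoproteasome genes, and the part of these markers in the result was not tested. Without f/f replicate 3, the log2 fold changes were 0.56 for Psmb8, 0.49 for Psmb9 and 0.44 for Psmb10, with edgeR adjusted p-values of 0.0277, 0.084 and 0.0863. Leaving out the highest f/f library raises these values by itself. Without f/f replicate 1 or 2 they were 0.21 and 0.16 for Psmb8, 0.24 and 0.11 for Psmb9, and 0.078 and 0.18 for Psmb10. The edgeR adjusted p-values in those fits were 0.536 to 0.775. In both FKO libraries, where the macrophage markers summed to 574 and 752 CPM, the 3 genes were above their levels in f/f replicates 1 and 2.

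The ratio of each immunoproteasome gene to the constitutive gene it replaces was compared over the libraries. Psmb8 over Psmb5 was 0.316, 0.353 and 0.506 in f/f against 0.228 and 0.220 in FKO, a difference of -0.78 on the log2 scale, or 1.72-fold lower. Both FKO libraries lay below all f/f libraries. With 3 libraries against 2, the smallest p of an exact two-sided permutation test is 0.1, which this ratio reached (0.3 after adjustment over the 3 ratios). Psmb9 over Psmb6 was 0.125, 0.128 and 0.171 in f/f against 0.155 and 0.147 in FKO (log2 0.11, exact permutation p = 0.6). Psmb10 over Psmb7 was 0.143, 0.204 and 0.238 in f/f against 0.176 and 0.174 in FKO (log2 -0.12, exact permutation p = 0.7). In these last ratios the FKO libraries fell inside the f/f range. Set over the sum of Psmb5, Psmb6 and Psmb7 instead, Psmb8 differed by -0.21 on the log2 scale (exact permutation p = 0.7).

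**Figure D2:**
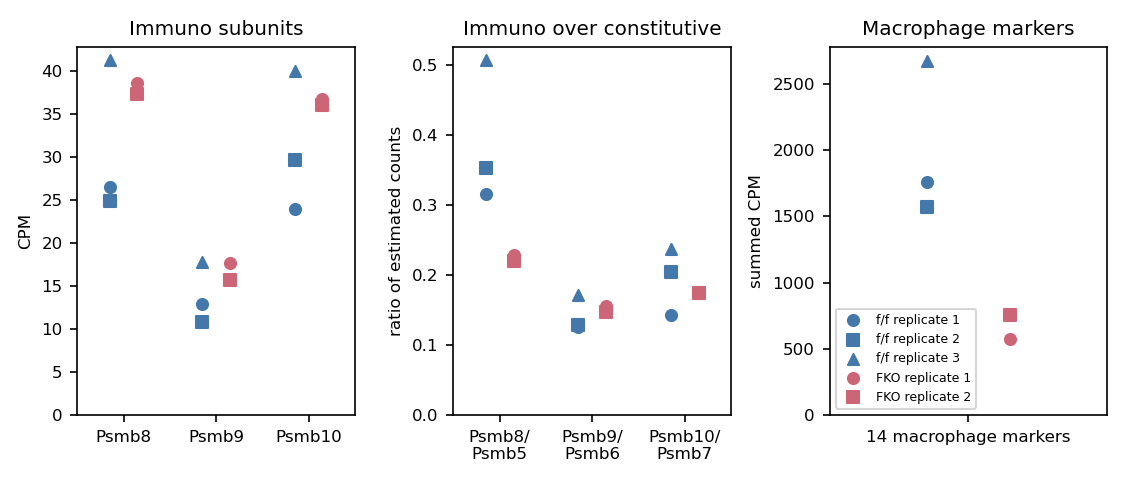
Left, CPM of the immunoproteasome genes Psmb8, Psmb9 and Psmb10 in each library; middle, ratio of estimated counts of each to its constitutive partner; right, summed CPM of 14 macrophage markers. Blue symbols are the 3 f/f libraries and red symbols the 2 FKO libraries; f/f replicate 3 (triangle) is the highest in every column, and only Psmb8 over Psmb5 and the macrophage markers separate the groups.

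The regulatory particle, taken as 17 genes for its ATPases, the other base subunits and the lid, summed to 1987, 1908 and 1939 CPM in f/f and to 2561 and 2502 CPM in FKO. Of the 17, 7 rose and 0 fell by edgeR (9 higher and 0 lower at an unadjusted p under 0.05; 7 and 0 by DESeq2; 6 and 0 by limma-voom). The share that rose was 41.2%, beside 11.9% of all genes tested. With upper-quartile factors, library size or FPKM as the scaling, described below, 2 of the 17 rose. Beside these, 8.96%, 7.11% and 7.51% of all genes tested were called higher. The median log2 fold change was 0.35. In CPM, every FKO library lay above every f/f library in 13 of the 17, or 76.5%, beside 28.6% of all genes. Whether the core and the regulatory particle differed in their change was not tested.

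Within the regulatory particle, all 3 non-ATPase subunits of the base rose, beside 11.9% of all genes tested. With upper-quartile factors, library size or FPKM as the scaling, Psmd4 alone of the 3 rose. Psmd4 (chr3:95032691-95042614), a receptor for ubiquitin chains, was at 149, 140 and 143 CPM in f/f and at 245 and 224 CPM in FKO, 1.63-fold higher (log2 0.71, SE 0.13, edgeR adjusted p = 0.0112). Psmd2, a large scaffold on which shuttle factors dock, was at 294, 288 and 246 CPM in f/f and at 411 and 410 CPM in FKO, 1.49-fold higher (log2 0.57, SE 0.15, adjusted p = 0.0302). Psmd1, the other large scaffold, was at 182, 191 and 163 CPM in f/f and at 255 and 240 CPM in FKO, 1.39-fold higher (log2 0.47, SE 0.14, adjusted p = 0.0483). In each of the 3 genes the groups were separate, with f/f replicate 3 the lowest library for Psmd1 and Psmd2.

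Of the 6 ATPases, Psmc2 rose. It was at 96.7, 97.1 and 97.6 CPM in f/f and at 130 and 132 CPM in FKO, 1.35-fold higher (log2 0.44, SE 0.13, edgeR adjusted p = 0.0433), and had an f/f SD of 0.444 CPM. Psmc1 and Psmc6 each had a log2 fold change of 0.35 (adjusted p = 0.111 and 0.116), and Psmc4 had 0.22 (adjusted p = 0.231). Psmc3 and Psmc5 showed almost no difference in mean. Psmc3 was at 121, 121 and 136 CPM in f/f and at 131 and 125 CPM in FKO, and Psmc5 at 105, 96.6 and 104 CPM in f/f and at 108 and 95.1 CPM in FKO (adjusted p = 0.922 and 0.983).

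Of the 8 lid genes, Psmd12, Psmd7 and Psmd11 rose. Psmd12, a lid scaffold, was at 77.3, 75.5 and 71.3 CPM in f/f and at 121 and 116 CPM in FKO, 1.59-fold higher (log2 0.67, SE 0.13, edgeR adjusted p = 0.0123). Psmd7, the inactive partner of the deubiquitinase Psmd14, was at 102, 99.2 and 109 CPM in f/f and at 153 and 145 CPM in FKO, 1.44-fold higher (log2 0.53, SE 0.13, adjusted p = 0.0273). Psmd11, which holds lid and core together, was at 63.9, 53.9 and 58.4 CPM in f/f and at 82.8 and 79.4 CPM in FKO, 1.38-fold higher (log2 0.47, SE 0.14, adjusted p = 0.0483). For these 3 the FKO libraries were above all f/f libraries. Psmd14, which removes the ubiquitin chain, was at 105, 93.0 and 98.8 CPM in f/f and at 107 and 111 CPM in FKO, a log2 fold change of 0.14 (SE 0.13, adjusted p = 0.467). Psmd7 and Psmd14 thus form a pair in the complex of which the former passed the test, but the difference between them was not tested. Psmd3, Psmd6, Psmd8 and Psmd13 had log2 fold changes of 0.30, 0.31, 0.20 and 0.05, with adjusted p-values of 0.139 to 0.786.

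The 3 chaperones of base assembly did not share a level of change. Beside Psmd5, described above, Psmd9 was at 19.2, 18.2 and 21.5 CPM in f/f and at 19.0 and 17.0 CPM in FKO (log2 -0.13, edgeR adjusted p = 0.566). Psmd10 was at 15.8, 16.3 and 18.5 CPM in f/f and at 17.3 and 18.2 CPM in FKO (log2 0.07, adjusted p = 0.742). Neither gene separated the groups.

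The 3 remaining genes of the name rule were at low levels. Psma8, an alpha subunit of the testis, had 0, 20 and 19 estimated counts in f/f against 0 and 16 in FKO. Psmb11, the beta subunit of the thymic cortex, had 0, 0 and 3 counts in f/f against 0 and 5 in FKO, and was removed by the filter on low counts, which the other 39 genes passed. Psmc3ip is not a subunit but a protein of meiotic recombination. It was at 1.04, 0.714 and 1.17 CPM in f/f and at 1.89 and 1.497 CPM in FKO (log2 0.79, edgeR adjusted p = 0.146), and its locus overlaps that of Mlx.

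The calls depended on the scaling between libraries. Scaling by library size put the all-gene median at -0.27 in place of -0.05, and the median of the 37 at 0.13 in place of 0.35. The 37 stood 0.40 above all genes in both cases. Factors between libraries shift all genes by nearly the same amount, so this margin could hardly change and does not test the result. With upper-quartile factors the medians were -0.17 and 0.23, and on the log2(FPKM + 0.1) scale tested with limma they were -0.24 and 0.14. The margin over all genes was 0.37 on that FPKM scale and 0.28 with a pseudocount of 1. At those settings, 7, 6 and 6 of the 37 were called higher with upper-quartile factors, library size and FPKM, beside 8.96%, 7.11% and 7.51% of all genes tested. A pseudocount of 1 in place of 0.1 also gave 6, beside 7.25% of all genes, and RLE factors gave 14, beside 12.4%. Psma1, Psmd5, Psmb5, Psma5, Psmd4 and Psmd12 were called under each of the scalings, and the calls of Psmd2, Psmd7, Psmb3, Psmd1, Psma4, Psmd11 and Psmc2 were lost under these 3. Psma6 lost its call with library size and FPKM. Of the 37, 35 had a positive log2 fold change with the scaling used here and 27 with library size alone. The separation of the groups depended on the scaling as well. Psma2, Psma3, Psmb4, Psmb6, Psmb7, Psmc1, Psmc4, Psmd3, Psmd6 and Psmd14 separated them in CPM but overlapped in FPKM. The share of calls that were higher among all genes was 47.1% here, 35% with upper-quartile factors, 26.1% with library size and 26.9% on the FPKM scale.

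**Figure D3:**
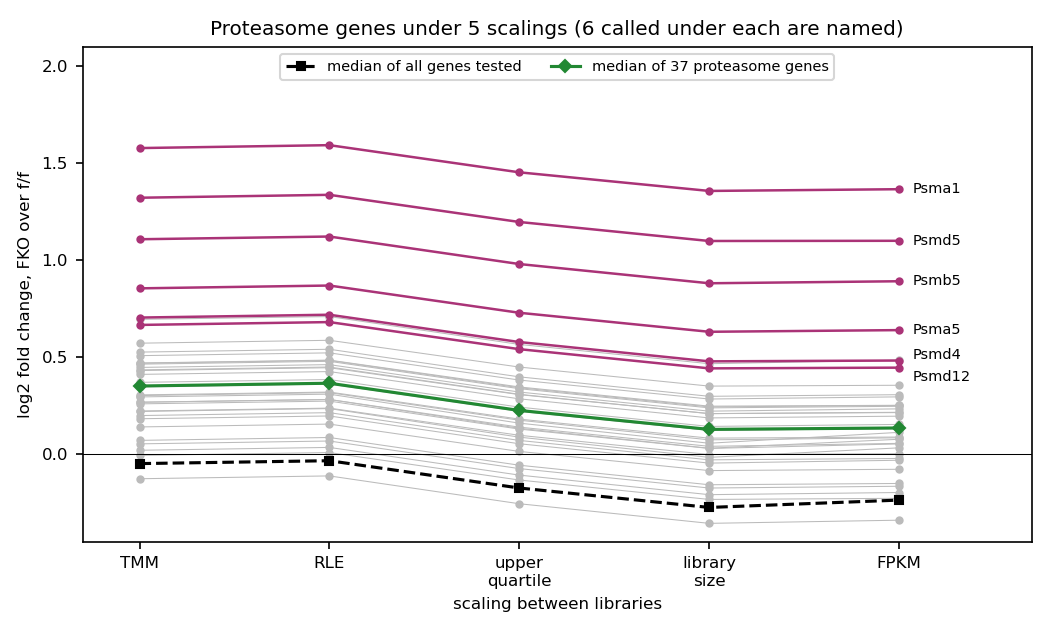
Log2 fold change of FKO over f/f under 5 ways of scaling the libraries, with 1 line per proteasome gene (37 in all). The black dashed line is the median of all 14492 genes tested and the green line the median of the 37; both move down together, and the 6 named genes (purple) passed the test under every scaling.

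With 1 FKO library left out the test had less to rest on. Without FKO replicate 1, and likewise without FKO replicate 2, the called members were Psma1, Psmd5 and Psmb5, where the lone FKO library was taken to vary like the f/f libraries. Without f/f replicate 2, 8 were called, beside 1422 of 14245 genes tested called higher. Without f/f replicates 1 and 3, 15 and 11 were called, beside 1690 of 14402 and 1577 of 14138 genes.

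Compared between genes per length, the transcripts of the 37 spanned a wide range. In f/f, Psmb7 had the highest mean, 174 FPKM, followed by Psma6 with 140 and Psmb1 with 130 FPKM. Neighbouring genes in this order overlapped over the 3 f/f libraries, except after Psmc4, Psmd12, Psmd5 and Psmd10. The lowest were the immunoproteasome genes, at 26.7 ± 9.16 for Psmb8, 26.0 for Psmb10 and 18.1 FPKM for Psmb9 (SD, n = 3), and the base chaperones Psmd5, Psmd10 and Psmd9 at 16.7, 12.3 and 7.96 FPKM. Chaperones of assembly are not part of the finished complex.

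In FKO, Psma1 was first, at 280 ± 29.2 FPKM (SD, n = 2) beside 109 ± 15.6 (SD, n = 3) in f/f, where it was in place 6. Psmb5 went from place 12 to place 4, at 94.7 and 175 FPKM, and Psma5 from place 22 to place 13, at 64.9 and 101 FPKM. Psmb6, the smallest change among the catalytic genes, went from place 9 to place 16, at 98.3 and 95.6 FPKM. FPKM values were not rescaled between libraries, so these levels fall on the scale with the lower all-gene median.

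**Figure D4:**
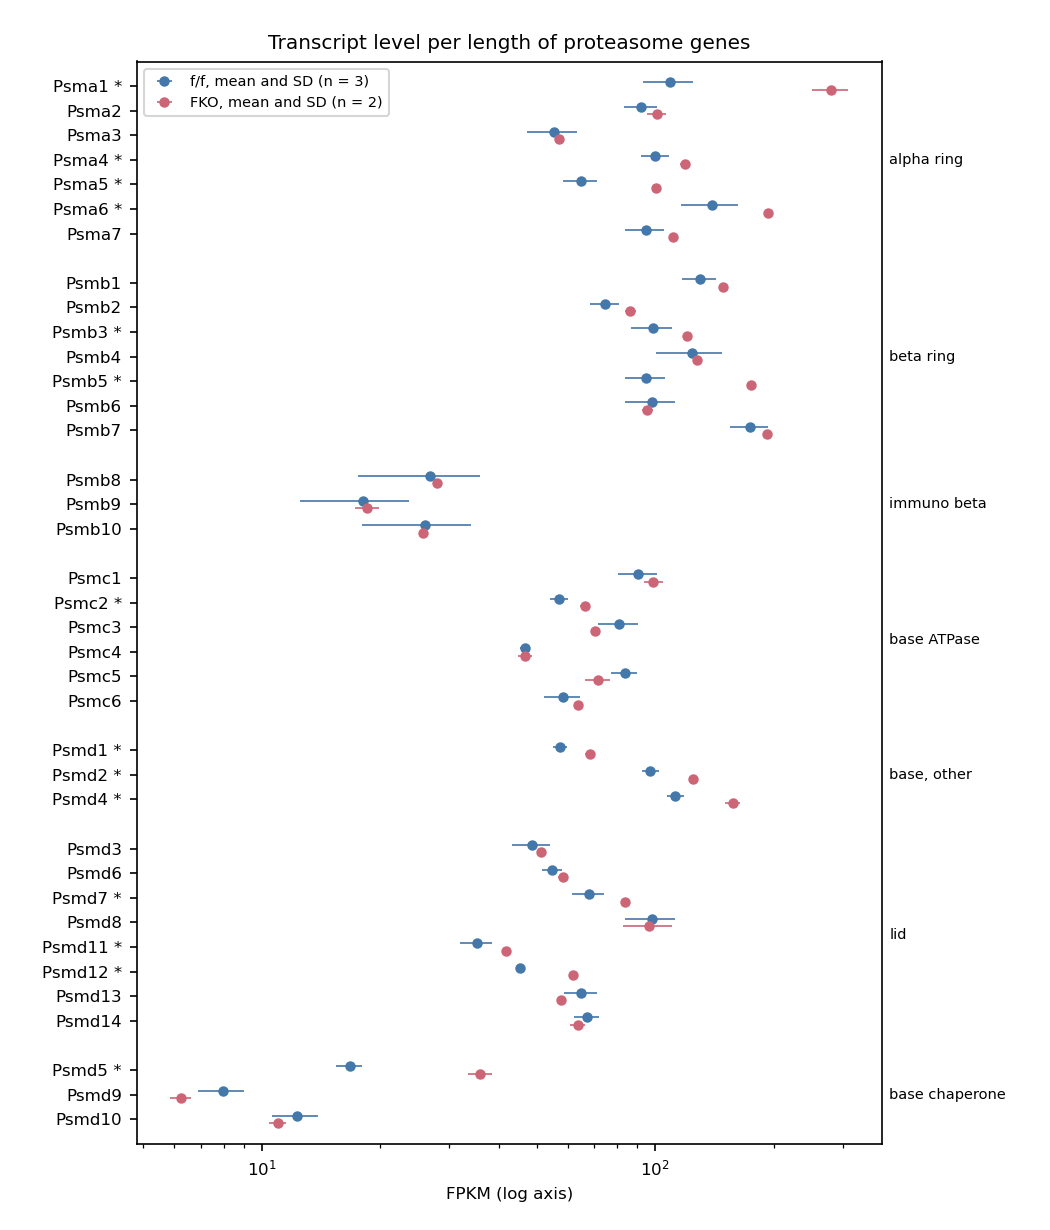
Mean level per length (FPKM, log axis) of the 37 proteasome genes, grouped by place in the complex. Points are means, bars are SDs over 3 f/f libraries (blue) and 2 FKO libraries (red), and a star marks an adjusted p under 0.05 by edgeR on the counts; the immunoproteasome genes and base chaperones lie lowest in f/f, and Psma1 is the highest in FKO.

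For most of the genes the table lists 1 transcript. Psmd4 has a pair of transcripts of which the one listed as variant 1 took 44.4%, 43.2% and 42.6% of its estimated counts in f/f against 46.6% and 48.4% in FKO. For Psmd2, a transcript listed as non-coding took 0.106%, 4.62% and 0.038% in f/f against 5.36% and 2.49% in FKO, so f/f replicate 2 lay between the FKO libraries. The main transcript of Psma3 held 82.2% to 85.4% and that of Psma7 93.3% to 95.1% over the 5 libraries. Psmd1, Psma3, Psma4, Psma6 and Psmb5 each overlap another annotated gene or microRNA, and whether counting used strand was not given in the sources used here. The GENCODE annotation names processed pseudogenes of Psmb5, Psmb6 and Psmb7, between which and the genes the counting could have split reads, so the values of these genes carry that uncertainty.

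Genes around the complex moved less uniformly. Of 5 genes for activators and an inhibitor of the core, Psme4 and Psme2 rose and 0 fell by edgeR (the same numbers at an unadjusted p under 0.05 and with DESeq2 or limma-voom), and the list median was 0.23. The share called higher was 40%, beside 11.9% of all genes tested. Psme4, a cap that opens the core without ATP, was at 130, 141 and 94.8 CPM in f/f and at 190 and 214 CPM in FKO (log2 0.73, SE 0.19, edgeR adjusted p = 0.0349). Psme2, a subunit of the interferon-inducible cap, was at 102, 93.9 and 117 CPM in f/f and at 151 and 144 CPM in FKO (log2 0.50, SE 0.15, adjusted p = 0.0469). Psmf1, an inhibitor of the core, had a log2 fold change of 0.23 (adjusted p = 0.247). None of the 5 chaperones of core assembly passed by edgeR, at an unadjusted p under 0.05, by DESeq2 or by limma-voom, and their median was -0.01. Of these, Psmg2, Psmg3 and Psmg1 had log2 fold changes of 0.14, -0.17 and -0.12.

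Among 14 ubiquitin receptors and proteasome-associated enzymes, Ubqln4 and Usp14 rose and Uchl5 fell, with a list median of 0.16. The share called higher, 14.3%, was near the 11.9% of all genes tested, and the share called lower, 7.14%, was below the 13.4% of all genes. Ubqln4, a shuttle factor that brings substrates to the proteasome, was at 42.9, 53.0 and 43.0 CPM in f/f and at 90.8 and 83.3 CPM in FKO (log2 0.91, SE 0.15, edgeR adjusted p = 0.0082). Usp14 and Uchl5 are deubiquitinases that bind the base. Usp14 was at 91.4, 76.5 and 71.0 CPM in f/f and at 112 and 120 CPM in FKO (log2 0.54, SE 0.16, adjusted p = 0.0432), and Uchl5 at 23.4, 24.4 and 26.5 CPM in f/f and at 16.6 and 18.5 CPM in FKO (log2 -0.49, SE 0.14, adjusted p = 0.043). Of 6 genes for ubiquitin and its activating enzymes, 1 fell and 0 rose by edgeR (2 lower and 0 higher at an unadjusted p under 0.05; 1 and 0 with DESeq2 or limma-voom), and the list median was 0.04. With RLE factors none was called lower. Rps27a, which encodes ubiquitin fused to a ribosomal protein, and Uba1, the main ubiquitin-activating enzyme, had log2 fold changes of -0.46 and 0.22 (adjusted p = 0.113 and 0.284).

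Of 14 regulators of proteasome transcription and related factors, 3 rose (Mafg, Stub1 and Vcp) and 3 fell (Maff, Mafk and Keap1), with a list median of 0.23. Each share was 21.4%, beside 11.9% of all genes tested called higher and 13.4% called lower. Whether so small a list differed from all genes was not tested. Small Maf proteins pair with NFE2-related factors on DNA. Mafg was at 18.6, 21.6 and 16.2 CPM in f/f and at 41.4 and 43.3 CPM in FKO (log2 1.17, SE 0.16, edgeR adjusted p = 0.00422). Maff was at 141, 118 and 142 CPM in f/f and at 58.9 and 34.8 CPM in FKO (log2 -1.51, SE 0.25, adjusted p = 0.00744), so the members of this family moved in opposite directions. Both directions held under every scaling. Keap1, which marks the factor encoded by Nfe2l2 for degradation, was at 45.6, 52.2 and 44.7 CPM in f/f and at 25.6 and 24.5 CPM in FKO (log2 -0.92, SE 0.14, adjusted p = 0.00643). Nfe2l1 and Nfe2l2, named here after their values were seen because they encode the NFE2-related factors themselves, did not pass. Nfe2l1 was at 545, 819 and 672 CPM in f/f and at 992 and 904 CPM in FKO (log2 0.48, adjusted p = 0.121), and Nfe2l2 had a log2 fold change of 0.04 (adjusted p = 0.877).

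Immunoproteasomes make peptides for antigen presentation, and of 12 genes of that pathway 4 rose (Nlrc5, Tapbpl, Tap1 and Canx) and 0 fell by edgeR (5 higher and 0 lower at an unadjusted p under 0.05 and by DESeq2; 4 and 0 by limma-voom). The share called higher was 33.3%, beside 11.9% of all genes tested. With library size 1 of the 12 was called higher, beside 7.11% of all genes. Nlrc5, an activator of class I genes, was at 31.7, 37.6 and 21.1 CPM in f/f and at 64.8 and 58.9 CPM in FKO (log2 1.04, SE 0.24, edgeR adjusted p = 0.0209). Tap1, a subunit of the peptide transporter, was at 27.0, 25.7 and 29.8 CPM in f/f and at 53.4 and 39.0 CPM in FKO (log2 0.75, SE 0.17, adjusted p = 0.0215). Tapbpl, an editor of peptides on class I molecules, had a log2 fold change of 0.73 (adjusted p = 0.0212). Of 14 interferon-response genes, 3 rose, among them Igtp and Gbp7, and 0 fell by edgeR (5 higher and 0 lower at an unadjusted p under 0.05; 4 and 0 by DESeq2; 3 and 0 by limma-voom), and the median was 0.01. For this list the share called higher was 21.4%, beside the 11.9% of all genes tested. The GTPase genes Igtp and Gbp7 had log2 fold changes of 1.33 and 1.12 (adjusted p = 0.00259 and 0.00341). In the same libraries 12 of 14 macrophage markers fell, and their part in these results was not tested. Over all these lists, 19 genes were called, and 5 and 6 were called without FKO replicate 1 or 2. With upper-quartile factors, Psme2, Usp14, Canx and Vcp lost their calls, with library size or FPKM also Psme4, Tapbpl and Tap1. Calls of lower genes were gained: Zfand5 (log2 -0.37, edgeR adjusted p = 0.11) passed with upper-quartile factors, library size and FPKM, and Rps27a with library size and without f/f replicate 2. Of the 70 list genes, 14 rose and 5 fell here, 10 and 6 with upper-quartile factors and 7 and 7 with library size. Of all 14492 genes tested, 1730 rose and 1944 fell here, 1299 and 2415 with upper-quartile factors, and 1030 and 2916 with library size. The list medians moved down with all genes: with library size they were 0.01 for the activators, -0.24 for core assembly, -0.06 for receptors, 0.02 for regulators, -0.18 for ubiquitin, 0.10 for antigen processing and -0.22 for interferon, beside -0.27 for all genes, and that of the receptors, the ubiquitin and the interferon lists thus changed sign. Igtp, Gbp7, Mafg and Maff passed under all 15 alternatives, and Uchl5 lost its call when any single library was left out.

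**Figure D5:**
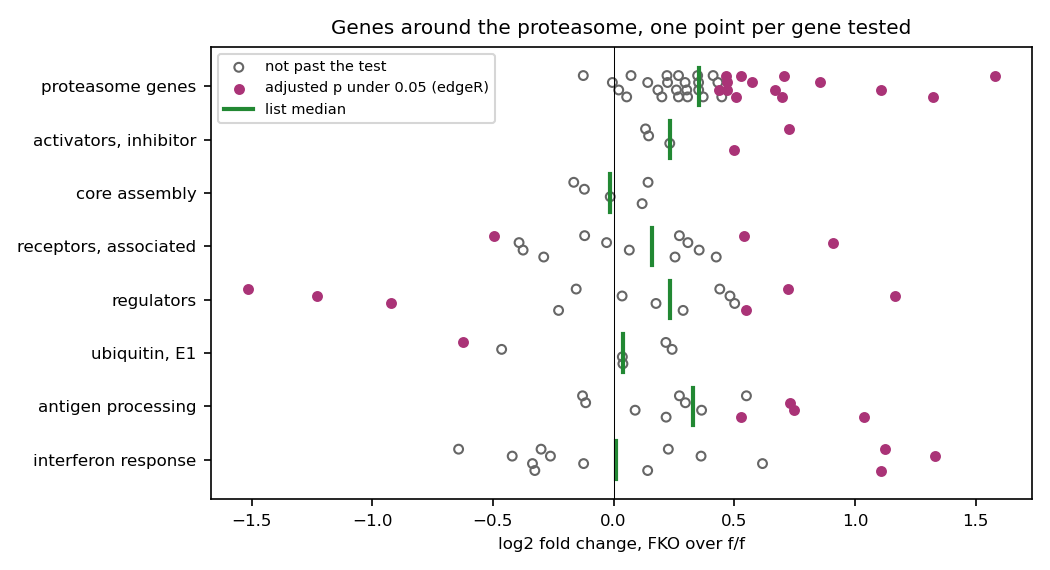
Log2 fold change of FKO over f/f for the 37 proteasome genes and for 7 lists of genes around the complex, with 1 point per gene tested. Filled points passed an adjusted p of 0.05 by edgeR, and the green bar is the median of the list; filled points lie on the positive side for the proteasome genes (14) and for the activators, antigen processing and interferon lists, on both sides for receptors and regulators, and on the negative side for the ubiquitin list (1).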

How the data were processed

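RNA was sequenced from poly-A libraries of 5 samples, 3 f/f and 2 FKO, grouped by the labels' titles. The authors deposited estimated counts and FPKM per RefSeq transcript. The submitters' processing notes name HISAT2 2.1.0, HISAT, Bowtie2, StringTie 1.3.4d and mm10, and how the counts were made was not given in the sources used here. In the deposited table the estimated counts were whole numbers, and 36779 transcript rows were used. Counts were summed per gene ID, filtered with edgeR's filterByExpr (14492 genes kept) and scaled with TMM factors (0.900 to 1.12). All genes were fitted together with glmQLFit and glmQLFTest of edgeR 4.0.16, with Benjamini-Hochberg adjustment over all genes tested. The common biological coefficient of variation was 23%. The SE was taken from the F statistic, as the size of the log2 change over the root of F. CPM values include the TMM factors. In the deepest and shallowest library, 3 counts equal 0.0526 and 0.0688 CPM, for counting error only. Replicate libraries differed by more than sampling noise, with median chi-square values per gene of 3.71 to 15.5 and 0.455 for noise alone. The FPKM values deposited by the authors were used for levels between genes and, as log2(FPKM + 0.1) with limma 3.58.1, as an alternative; such a fold change understates low genes.

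Other alternatives were RLE and upper-quartile factors, library size, no filter and a filter of 10 counts, a replicate block, each library left out, limma-voom and DESeq2 1.42.0 (R 4.3.3). The scripts were tested on simulated counts, with every gene given the common coefficient of variation of 23%. Of genes changed 1.5-fold, 2-fold and 4-fold, edgeR called 4.48%, 14.9% and 98.5%, and 2.5% of calls were of unchanged genes. A gene that was not called may therefore still differ between the groups. Ratios were compared with exact two-sided permutation tests. The members and lists were chosen with earlier results of these data known. The genes named are every gene of the name rule, with full values for those past the threshold, the immunoproteasome genes, their constitutive partners, Psmd4, Psmd11 and Psmd14, and, from each surrounding list, at most the 3 lowest p-values. Results for some genes of the surrounding lists are not reported here. Of 17 names in the receptor list 14 were matched. Promoters were matched by gene for 33 of the 40 genes. Markers of lymphocytes (6 of 11 tested, 0 called by edgeR, DESeq2, limma-voom or at an unadjusted p under 0.05), endothelium (7, 0 called by edgeR or limma-voom, 1 lower by DESeq2 and at an unadjusted p under 0.05), fibroblasts and progenitors (8, 5 fell) and mesothelium (7, 7 fell) were also examined.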

Additional observations from a re-analysis of the deposited data

How the results depend on the processing

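Of 15 alternatives, the count of 14 members called moved by more than 1.5 times with upper-quartile factors (7), library size (6), no filter (9), FPKM with a pseudocount of 0.1 (6) or 1 (6) and a replicate block (9), and ranged from 3 to 15 over the libraries left out. No paired design is stated. For the pairs numbered 1 and 2, deviations from the group means correlated at 0.0657 and -0.0812. The deviations of the 2 FKO libraries mirror each other, so these values cannot show whether samples of a number share more than that number. Of the 9 genes called with the block, 8 were among the 14 (Psmb8 was the addition). The genes called around the complex ranged from 5 to 16 over the libraries left out, with 19 in the full fit.

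The median log2 fold changes of the classes were, in the order upper-quartile factors, library size, FPKM + 0.1 and FPKM + 1: 0.34, 0.24, 0.25 and 0.25 for the alpha ring; 0.29, 0.19, 0.20 and 0.20 for the beta ring; 0.16, 0.062, 0.068 and 0.067 for the ATPases; 0.45, 0.35, 0.36 and 0.35 for the other base subunits (0.50 with the replicate block); and 0.18, 0.079, 0.087 and 0.086 for the lid. That of the base chaperones turned negative, at -0.056, -0.16, -0.15 and -0.14. With libraries left out, the ATPase median ranged from 0.25 to 0.32 and that of the other base subunits from 0.49 to 0.64.

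Genes near 0 changed sign, none of them called. In the same order, Psmc3 had -0.11, -0.21, -0.20 and -0.19, Psmd10 -0.056, -0.16, -0.15 and -0.14, and Psmd13 -0.073, -0.17, -0.16 and -0.16. With library size and both FPKM settings, Psmb6 had -0.045, -0.030 and -0.030, Psmd14 -0.084, -0.077 and -0.076, and Psmd8 -0.028, -0.021 and -0.021. With library size, Psmb10 had -0.015 and Psmc4 -0.00061. Psmc3 was also negative with the stricter filter (-0.0018), and with libraries left out it ranged from -0.010 to 0.076. Psmc5 turned positive with RLE factors (0.0094), the block (0.0077), and DESeq2 (0.0095), and ranged from -0.0997 to 0.087 with libraries left out. The ratio of Psmb9 over Psmb6 turned to -0.24 over the summed constitutive genes, and Psmb10 over Psmb7 turned to 0.039 with differences within replicate numbers, and ranged from -0.33 to 0.039 with libraries left out (the latter without f/f replicate 3). The causes were not tested. Fold changes near 0 are within the spread of 5 libraries, and 2 FKO libraries limit every test.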

Other observations

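The genes next to the 3 proteasome genes with the highest fold changes were looked at as single values. Beside Psma1, 4933406I18Rik had a log2 fold change of 0.38 (edgeR adjusted p = 0.557), and Copb1 was at 164, 132 and 103 CPM in f/f and at 159 and 159 CPM in FKO (log2 0.26, edgeR adjusted p = 0.386). Beside Psmd5, Fbxw2 had a log2 fold change of 0.27 (adjusted p = 0.15), and Phf19, on its other side, was at 0.776, 0.986 and 1.14 CPM in f/f and at 0.711 and 0.214 CPM in FKO (log2 -1.06, adjusted p = 0.208). Beside Psmb5, 4931414P19Rik had a log2 fold change of 0.01 (adjusted p = 0.979), and Cdh24, on its other side, was at 0.0887, 0.119 and 0.187 CPM in f/f and at 0.533 and 1.14 CPM in FKO (log2 2.62, adjusted p = 0.0204). Cdh24 had 4 to 48 counts per library, and its call was lost without f/f replicate 2, without either FKO replicate and with FPKM + 1 (adjusted p = 0.0037 to 0.195 and log2 0.28 to 3.07 over the alternatives).

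The minor transcript of Psmd10 held 22.6%, 15.8% and 17.6% of the gene's estimated counts in f/f against 13.4% and 8.11% in FKO. The groups did not overlap, but the difference was not tested. The transcript had 62 to 208 counts per library. How often transcript shares separated the groups was not counted. In CPM, 30.5% of all genes tested were lower in both FKO libraries than in any f/f library.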
